A study of Mus musculus with 99 samples.

Results

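EPOP is an accessory subunit of PRC2.1, the form of Polycomb repressive complex 2 that also carries MTF2, and SUZ12 is a core subunit shared by every PRC2 complex. The EPOP peak list of vehicle-treated (-OHT) Parental mouse embryonic stem cells held 8048 peaks, of which 7024 overlapped a SUZ12 peak of the same cells by at least 1 bp and 1024 overlapped none. These 1024 regions, called SUZ12-negative EPOP peaks here, are described below beside the 7024 SUZ12-positive ones. Because the EPOP and SUZ12 lists of Parental -OHT cells chose the members, their scores in these 2 lists are given as a description only. A missing SUZ12 peak means that no region there reached the score limit of the list, a −log10 p of at least 10, and not that the protein was shown to be absent.

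The Parental line carried ROSA26::creERT2, was null for RING1A and had floxed RING1B alleles (RING1A-/-; RING1B fl/fl), so that 4-hydroxytamoxifen (OHT, 0.5 µM for 72 h) was used to delete RING1B, and ethanol served as the vehicle (-OHT). Picked derivative clones of this line expressed FLAG-HA-tagged RING1B WT or RING1B I53S, a catalytic mutant, from a CAG promoter before and after OHT. Each ChIP-seq condition gave 1 peak list. The exceptions, with 2 lists, were MTF2 and JARID2 in the RING1B WT and RING1B I53S clones after 72 h of OHT, and MTF2 knockout clones of the 3 lines supplied further SUZ12 and H3K27me3 lists. MTF2 and JARID2 also had lists after 48 h of OHT in the 3 lines. RNA-seq covered the 3 lines and an independent Eed fl/fl line, -OHT and +OHT, with 2 libraries per group, and nothing in the labels says whether these came from separate cultures.

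PRC2 deposits H3K27me3 and PRC1 deposits H2AK119ub1. PRC2.1 contains MTF2, PHF1 or PHF19, with EPOP or PALI proteins as further partners, whereas PRC2.2 contains JARID2 and AEBP2, and JARID2 recognises H2AK119ub1. EPOP also binds Elongin B and C, which take part in transcription elongation and in ubiquitin ligases, and MTF2 binds unmethylated CpG-rich DNA, the usual ground for Polycomb complexes in embryonic stem cells.

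The RNA-seq libraries held 6957248 to 12743460 counts each. All 6 embryonic stem cell markers (Pou5f1, Sox2, Nanog, Klf4, Esrrb and Zfp42) reached 1 RPKM in each of the 12 libraries of the 3 lines and of the 4 Eed fl/fl libraries, with a summed level of 428 to 1083 RPKM in the 12. The 4 endoderm markers summed to 0.292 to 5.09 RPKM in these 12 libraries and the 3 neural markers to 0.280 to 2.71 RPKM. The RING1B list held 5073 peaks in Parental -OHT and 690 in Parental +OHT, of which 82.6% lay on chromosome 11. Counts of Rnf2, the RING1B gene, were 191 and 232 CPM (counts scaled to library size) in Parental -OHT and 156 and 176 in Parental +OHT, and counts over the whole gene do not separate its floxed part from the rest. Chromosome 11 also held more peaks than its share of genes (7.47% of protein-coding gene names) in the 12 Parental -OHT lists, at 9.58% to 24.4%. In RNA-seq, levels in the Parental cells were set against those in the Eed fl/fl libraries, relative to all genes. The median gene on chromosome 11 stood 0.29 to 0.37 log2 units higher, and that on chromosome 8 at -0.51 to -0.44. All lists were called against the input of another line, E14, DNA copy number was not measured, and its part in any result was not tested.

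Sequences are shown first, so that the values below can be read beside the regions they belong to. The central 200 bases of 7 regions are given on the plus strand of GRCm38 (mm10), read from the RefSeq assembly of that build. Capitals mark letters inside a match to any of 16 motifs searched on both strands. The first 3 are the SUZ12-negative promoter peaks with the highest EPOP score in Parental +OHT among those with an EPOP peak in all 3 +OHT lists. They lay at Sp2 (chr11:96977715-96977914), Osbp (chr19:11965407-11965606) and Rab5b (chr10:128696316-128696515).
Sp2: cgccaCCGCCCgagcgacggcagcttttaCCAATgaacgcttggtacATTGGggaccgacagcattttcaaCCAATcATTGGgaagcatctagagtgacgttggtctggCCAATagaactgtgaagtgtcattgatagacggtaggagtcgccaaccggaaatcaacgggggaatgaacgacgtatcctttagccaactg
Osbp: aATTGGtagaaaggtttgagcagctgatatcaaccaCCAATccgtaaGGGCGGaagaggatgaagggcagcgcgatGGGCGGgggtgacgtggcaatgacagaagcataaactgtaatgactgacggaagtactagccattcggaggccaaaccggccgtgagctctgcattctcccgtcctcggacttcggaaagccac
Rab5b: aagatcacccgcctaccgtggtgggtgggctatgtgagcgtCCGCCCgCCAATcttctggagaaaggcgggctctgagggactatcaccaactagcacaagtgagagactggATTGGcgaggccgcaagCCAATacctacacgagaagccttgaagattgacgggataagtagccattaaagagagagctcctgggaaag
The next 2 are the highest scoring SUZ12-negative peaks outside promoters, an intergenic region nearest to Gm12688 (chr4:99636104-99636303) and another nearest to Mgat4e (chr1:134535223-134535422).
Gm12688: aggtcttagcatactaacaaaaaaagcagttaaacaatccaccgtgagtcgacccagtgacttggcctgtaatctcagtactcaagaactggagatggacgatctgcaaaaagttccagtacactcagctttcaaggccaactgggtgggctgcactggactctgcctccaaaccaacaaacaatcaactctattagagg
Mgat4e: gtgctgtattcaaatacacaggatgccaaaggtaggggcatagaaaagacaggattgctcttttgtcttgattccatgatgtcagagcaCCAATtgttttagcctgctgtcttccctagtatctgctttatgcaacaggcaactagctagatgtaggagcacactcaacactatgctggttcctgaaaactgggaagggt
For contrast, the last 2 are the centres of the highest scoring SUZ12-positive EPOP peaks at promoters, at Neurod2 (chr11:98323653-98323852) and Plxnd1 (chr6:115992813-115993012), genes of neuronal differentiation and semaphorin signalling. These peaks are wide, so that the middle of the Neurod2 peak lay 5895 bp from the nearest annotated start.
Neurod2: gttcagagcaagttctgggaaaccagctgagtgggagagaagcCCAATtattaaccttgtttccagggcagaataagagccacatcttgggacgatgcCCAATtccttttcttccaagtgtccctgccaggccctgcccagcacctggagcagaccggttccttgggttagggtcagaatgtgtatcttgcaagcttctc
Plxnd1: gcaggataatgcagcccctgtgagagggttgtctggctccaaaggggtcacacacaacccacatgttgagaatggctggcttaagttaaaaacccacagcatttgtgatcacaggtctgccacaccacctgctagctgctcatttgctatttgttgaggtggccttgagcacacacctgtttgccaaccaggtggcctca

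The Sp2 stretch held 5 matches to CCAAT, the letters of the box bound by NF-Y, and 1 to GGGCGG, those of Sp and Klf factors. The Osbp stretch held 2 and 2, and the Rab5b stretch 3 and 1. The stretches nearest to Gm12688 and Mgat4e held 0 and 1 CCAAT and no GGGCGG, with GC contents of 46.0% and 44.5%. A match is only a description of the letters.

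SUZ12-negative EPOP peaks were short and weak. Their median length was 794 bp against 1632 bp for the SUZ12-positive peaks, and their median EPOP score was 12.3 against 26.4. An EPOP score under 20 was held by 94.3% of the SUZ12-negative peaks and by 36.2% of the SUZ12-positive ones. By score, 41.4% of the 1079 EPOP peaks scoring 10 to 12 lacked SUZ12, 13.2% of the 1213 scoring 15 to 20 did, and 0.515% of the 3108 scoring 30 or more did, which is 16 peaks. These 16 reached up to 111.6, the score at Sp2.

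The closest members to the limit of the rule were a peak at chr2:90783460-90784250, 33 bp from a SUZ12 peak and with an EPOP score of 11.3, and one at chr7:79549171-79550309, 71 bp away and scoring 10.1. Just outside it, peaks at chr5:24351888-24352849 (score 16.2) and chr5:36696194-36697377 (score 10.7) overlapped SUZ12 by 23 and 28 bp. Only 58 members (5.66%) lay within 1 kb of a SUZ12 peak, and the median distance was 27407 bp. At the limit of the rule, then, a few members neighboured SUZ12, but most lay far from it. Just 2 of the 1024 overlapped a peak of any input list.

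Fewer of the SUZ12-negative peaks lay at genes. A promoter, here 2.5 kb to either side of an annotated transcript start, held 482 of 1024 members (47.1%, 95% Wilson interval 44.0 to 50.1) and 80.1% of the SUZ12-positive peaks, a difference of -33.0 percentage points (Newcombe interval -36.2 to -29.8). Introns held 12.6% against 3.50%, exons outside promoters 9.47% against 7.2%, and intergenic sequence 30.9% against 9.23%. All intervals of peak shares cover counting over peaks within 1 library per condition, not replicate error, and carry no test. Chromosome 11 held 320 members (31.2%, interval 28.5 to 34.2) against 12.1% of the SUZ12-positive peaks. No other chromosome held a larger share of members than of SUZ12-positive peaks with an interval clear of 0. Some results below are repeated without chromosome 11, and silence elsewhere does not mean that a result stayed the same.

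The members were also less CpG-rich. In 500 bp windows at the peak middle, median GC content was 53% in members, 60.2% in SUZ12-positive peaks and 57.0% at 21930 protein-coding gene starts. The median ratio of observed to expected CpG was 0.47, 0.64 and 0.59 in the same order. Windows with at least 50% GC and a CpG ratio of at least 0.6 made up 22.1% of the members and 54.6% of the SUZ12-positive peaks. Promoter members came closer to the latter than the others did, with a median CpG ratio of 0.54 against 0.42 for members outside promoters.

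Almost every SUZ12-negative EPOP peak held its PRC2.1 partner MTF2 in the same cells. An MTF2 peak of Parental -OHT overlapped 946 members (92.4%, interval 90.6 to 93.9), 7023 of the 7024 SUZ12-positive peaks and 42.4% of 500 bp windows at protein-coding gene starts. JARID2, the PRC2.2 subunit, overlapped 722 members (70.5%, 67.6 to 73.2) and 99.4% of the SUZ12-positive peaks. Its other PRC2.2 partner AEBP2, whose list held 1331 peaks, overlapped 10 members (0.977%) against 15.6%. The MTF2 peaks at members were low in their own list, with a median score of 44.7 against 294 at SUZ12-positive peaks, and so were the JARID2 peaks, at 21.4 against 187.

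H3K27me3 overlapped 434 members (42.4%, 39.4 to 45.4) and 88.2% of the SUZ12-positive peaks, and 37.2% of the members off chromosome 11. H2AK119ub1 overlapped 249 members (24.3%, 21.8 to 27) against 65.3%, and 18.2% of the members off chromosome 11. Peaks of the canonical PRC1 subunits were rare there. CBX7, which reads H3K27me3, overlapped 35 members (3.42%) against 72.3%, and PCGF2 overlapped 7 (0.684%) against 69.5%. RING1B, a core subunit of canonical and variant PRC1, overlapped 9 (0.879%) against 63.6%. The variant PRC1 subunits PCGF6 and RYBP overlapped 157 (15.3%) and 82 members (8.01%), against 45.8% and 26.7%. Off chromosome 11 they overlapped 12.9% and 5.40% of members.

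The gap between the classes was also seen at like EPOP score. Among peaks scoring 10 to 12, CBX7 overlapped 2.68% of 447 members and 25.5% of 632 SUZ12-positive peaks, a difference of -22.8 percentage points (-26.5 to -19.0). In the same score range H3K27me3 overlapped 42.3% against 65.3%, and JARID2 73.6% against 96.0%. Among the 42 members scoring 20 to 30, CBX7 overlapped 3 (7.14%) against 74.8%. The share of members with MTF2 was lower at higher EPOP scores. It was 96.2% at scores of 10 to 12, 71.4% at 20 to 30 and 6 of 16 at 30 or more, while in the SUZ12-positive peaks it was at least 99.9% in each range.

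**Figure D1:**
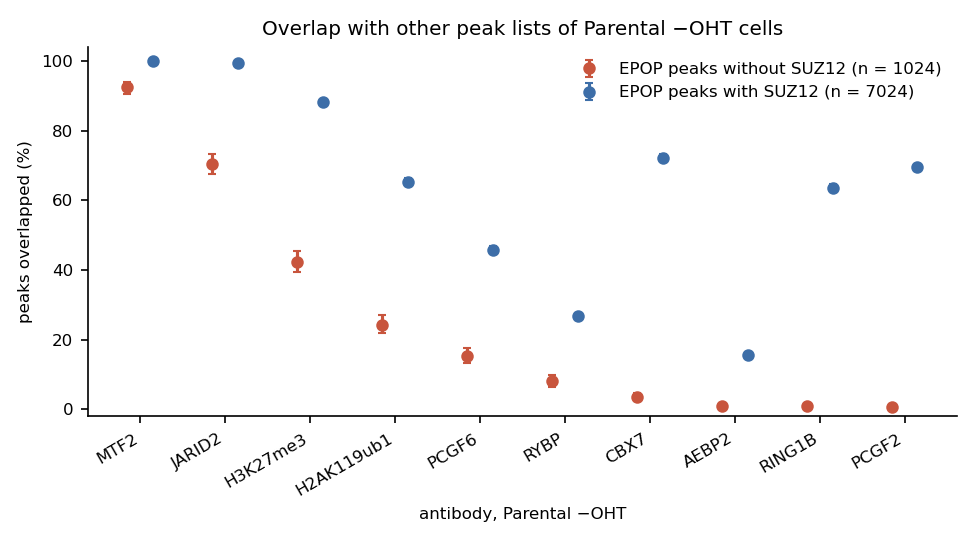
Percent of EPOP peaks of Parental -OHT overlapped by at least 1 bp by a peak of each other antibody in the same cells, for the 1024 peaks without SUZ12 (red) and the 7024 with SUZ12 (blue); bars are 95% Wilson intervals over peaks. MTF2 overlapped 92.4% of the peaks without SUZ12, while RING1B and PCGF2 overlapped under 1% of them.

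By combination, 384 members (37.5%) held MTF2, JARID2 and H3K27me3, 334 (32.6%) held MTF2 and JARID2 without H3K27me3, and 228 (22.3%) held MTF2 without JARID2. The last combination was held by 43 SUZ12-positive peaks (0.612%). Neither MTF2 nor JARID2 was held by 74 members (7.23%), and 56 members (5.47%) held no peak of the 10 other antibodies of Parental -OHT cells, while none of the 7024 SUZ12-positive peaks was of either kind. That count of 0 allows a share of up to 0.0547% (Wilson).

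The 78 members without MTF2 differed from the 946 with it in other ways. Their median EPOP score was 15.7 against 12.3, their median GC content 44.9% against 53.6% and their median CpG ratio 0.23 against 0.48. Promoters held 28.2% of them against 48.6%, and the soft-masked (repeat) share of their windows had a median of 15.7% against 6.40%. H3K27me3 overlapped 4 of the 78 (5.13%) and 45.5% of the 946. All 5 of the highest scoring members outside promoters, nearest to Gm12688, Mgat4e, Sptlc2, Thada and C330002G04Rik, were without MTF2, JARID2 and H3K27me3.

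MTF2 and JARID2 lists of the other lines gave the members a lower share. Before OHT, MTF2 overlapped 78.3% of members in the RING1B WT clone and 64.3% in the RING1B I53S clone, against 99.5% and 98.2% of the SUZ12-positive peaks. JARID2 overlapped 20.7% and 13% of members there, against 88.6% and 82.7%. These JARID2 lists held 7446 and 6563 peaks, and the Parental -OHT list 14778. The 70.5% overlap with JARID2 was thus seen in the Parental list and not in those of its 2 derivative clones.

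Each SUZ12 list of the other conditions filled in few of the members. SUZ12 overlapped 6.54% of them in Parental +OHT, 8.11% in RING1B WT +OHT and 2.15% in RING1B I53S +OHT, against 64.1%, 85.2% and 39.6% of the SUZ12-positive peaks. In MTF2 knockout clones SUZ12 overlapped 10.6% of members in Parental -OHT and 14.2% in RING1B WT +OHT, but 4.55% in each off chromosome 11. The SUZ12-positive peaks gave 44.4% and 45.1% there. In the knockout clones of Parental +OHT and RING1B I53S +OHT, SUZ12 overlapped 7.32% and 2.05% of members. The SUZ12-positive peaks gave 9.20% and 1.98%. Off chromosome 11 these were 0.852% and 0.284% of members, against 4.61% and 0.518%. In all, 324 members (31.6%) met a SUZ12 peak in at least 1 of the 7 other SUZ12 lists, and 17.8% of those off chromosome 11 did.

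Most SUZ12-negative EPOP peaks were in none of the EPOP lists with OHT. Only Parental had an EPOP -OHT list, so clone and OHT cannot be told apart in RING1B WT and RING1B I53S. An EPOP peak of Parental +OHT overlapped 83 members (8.11%, 6.59 to 9.94), one of RING1B I53S +OHT 103 (10.1%, 8.36 to 12.1) and one of RING1B WT +OHT 377 (36.8%, 33.9 to 39.8). The SUZ12-positive peaks gave 33.5%, 34.9% and 89.6% in the same order. Over the same 1024 members, RING1B WT exceeded Parental by 28.7 percentage points (25.6 to 31.9) and RING1B I53S by 26.8 (23.6 to 29.9), while RING1B I53S and Parental differed by 1.95 (0.203 to 3.70). Off chromosome 11 the 3 shares of members were 6.39%, 7.95% and 34.2%, and on it 11.9%, 14.7% and 42.5%. The +OHT lists differed in size, with 2840, 3095 and 7866 peaks.

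At like EPOP score, the classes stood close together in Parental and RING1B I53S cells and far apart in RING1B WT. Among peaks scoring 12 to 15, an EPOP peak of Parental +OHT overlapped 6.96% of 359 members and 7.37% of 855 SUZ12-positive peaks, a difference of -0.405 percentage points (-3.35 to 3.08). In RING1B I53S +OHT the same peaks gave 9.19% and 10.1% (difference -0.866, interval -4.25 to 3.03). In RING1B WT +OHT they gave 36.8% and 69.8%, a difference of -33.1 (-38.7 to -27.1). The RING1B WT difference lay between -29.0 and -33.1 percentage points in each of the 5 score ranges, and all 5 intervals stayed below 0. In Parental +OHT, 1 of the 5 intervals lay clear of 0, at scores of 20 to 30, where 14 of 42 members (33.3%) kept a peak against 18.5%. In RING1B I53S +OHT 1 interval lay clear of 0 too, at scores of 10 to 12 (4.03% against 6.96%).

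**Figure D2:**
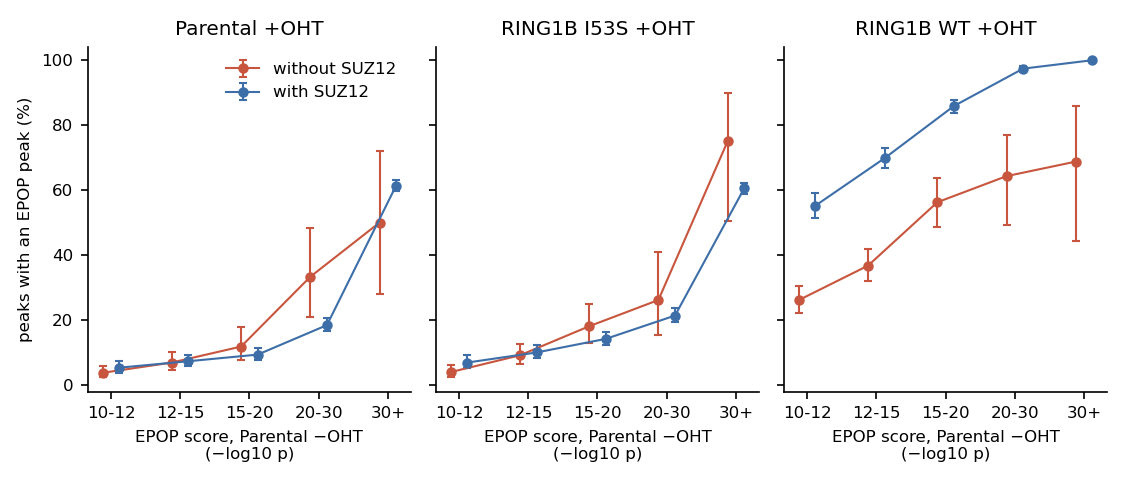
Percent of EPOP peaks of Parental -OHT that overlapped an EPOP peak of each +OHT library, by their Parental -OHT score, without SUZ12 (red) and with SUZ12 (blue); bars are 95% Wilson intervals over peaks, and each library is 1 sample. The classes lie close in Parental and RING1B I53S up to a score of 20 and apart in RING1B WT throughout.

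MTF2 at the members also thinned with OHT. Before OHT its shares were 92.4% in Parental, 78.3% in RING1B WT and 64.3% in RING1B I53S. At 72 h it overlapped 26.6% of members in Parental, 21.5% and 35.0% in the 2 RING1B WT libraries, and 1.17% and 25% in the 2 RING1B I53S libraries. The RING1B I53S pair was spread so widely, with lists of 3091 and 7546 peaks, that no difference between the lines could be read from these libraries. At 48 h MTF2 overlapped 33.1% in Parental, 35.3% in RING1B I53S and 54.7% in RING1B WT. Among the SUZ12-positive peaks, MTF2 went from 99.99% to 75.01% at 72 h in Parental, with lists of 24485 and 7774 peaks. Their MTF2 share went from 99.5% to 92.5% and 92.8% in RING1B WT, and from 98.2% to 35.96% and 69.1% in RING1B I53S. JARID2 went from 70.5% of members to 0.195% at 72 h in Parental. Its share of members went from 20.7% to 2.54% and 8.40% in RING1B WT, and from 13% to 0.0977% and 0.195% in RING1B I53S. Among the SUZ12-positive peaks, JARID2 went from 99.4% to 17.6% in Parental, with lists of 14778 and 1404 peaks. It went there from 88.6% to 76.1% and 77.4% in RING1B WT, and from 82.7% to 13.1% and 5.11% in RING1B I53S. Both classes thus fell, and the part of list size was not tested.

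H3K27me3 overlapped 20.4% of members in Parental +OHT, 15.2% in RING1B I53S +OHT and 38.0% in RING1B WT +OHT, and 42.4% in Parental -OHT. H2AK119ub1 overlapped 9.38%, 4.30% and 37.6% in the same order, and 24.3% in Parental -OHT. Off chromosome 11 the +OHT shares were 17.2%, 11.1% and 32.8% for H3K27me3 and 7.24%, 2.84% and 31.25% for H2AK119ub1. For RING1B WT and RING1B I53S, -OHT lists of these marks were not analysed here. Both marks were thus listed at fewer members in Parental and RING1B I53S +OHT than in RING1B WT +OHT. This order was not particular to the members. In Parental, RING1B I53S and RING1B WT +OHT, H3K27me3 overlapped 58.3%, 36.6% and 81.0% of the SUZ12-positive peaks. H2AK119ub1 overlapped 45.8%, 28.0% and 72.7% of them. The paper, with spike-in scaled ChIP-seq and western blots, reported H2AK119ub1 as fully lost in Parental and RING1B I53S cells at 72 h of OHT. Peak lists carry no spike-in scale, so a listed peak does not show how much of a mark was left. In Parental cells the H2AK119ub1 list covered 12.5% of 500 bp windows at protein-coding gene starts with OHT and 9.57% without.

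By pattern over the 3 +OHT lists, 596 members (58.2%) had no EPOP peak in any, 293 (28.6%) in RING1B WT alone and 37 (3.61%, 2.63 to 4.94) in all 3. Of the SUZ12-positive peaks, 9.71%, 47.5% and 25.5% showed these patterns. A further 14 members (1.37%) had a peak in Parental and RING1B I53S but not in RING1B WT, against 7 SUZ12-positive peaks (0.0997%).

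The 37 SUZ12-negative EPOP peaks also listed in all 3 +OHT lists lay mainly at promoters. Promoters held 29 of them (78.4%), against 42.6% of the 596 present in no +OHT list, and chromosome 11 held 22. MTF2 overlapped 30 (81.1%), JARID2 13 (35.1%), H3K27me3 9 (24.3%) and PCGF6 13 (35.1%). In the 596 these shares were 91.3%, 68.3%, 37.4% and 14.9%. The median Parental -OHT score was 18.4 in the 37 and 11.8 in the 596.

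Sp2, an Sp-family zinc-finger factor, had the highest score of all members. Its peak (chr11:96977343-96978288, 111.6) stayed at 117.4 in Parental +OHT, 110.5 in RING1B I53S +OHT and 107.0 in RING1B WT +OHT. It overlapped MTF2 and none of JARID2, H3K27me3, H2AK119ub1, PCGF6 and RYBP. At Osbp, a sterol carrier between endoplasmic reticulum and Golgi, the peak scored 25.7 in Parental -OHT. It scored 65.1, 50.7 and 41.2 in Parental, RING1B I53S and RING1B WT +OHT. At Rab5b, a GTPase of early endosomes, the scores were 30.5, then 62.3, 51.4 and 36.8. At G3bp1, an RNA-binding protein at the core of stress granules, they were 31.2, then 47.4, 48.2 and 27.5. Scores of separate libraries are not on a common scale, so these values say only that each list held the peak.

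The same held for Khsrp, an RNA-binding regulator of splicing and mRNA decay. It had 34.7 before (Parental -OHT) and 28.3 to 33.2 after (the +OHT lists). Abhd2, a lipid hydrolase, had 26.5 before and 20.0 to 38.9 after. Kmt5c, a histone H4 lysine methyltransferase, had 16.5 before and 14.2 to 33.2 after, and Dcaf7, an adaptor of cullin ligases and kinases, 18.9 before and 17.5 to 27 after. A single peak stood between the head-to-head genes Drc3 and Tom1l2 (19.7 before, 13.7 to 36.3 after). Khsrp, Osbp, Kmt5c and Dcaf7 had no peak of MTF2, JARID2 or H3K27me3 at this place in Parental -OHT.

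**Figure D3:**
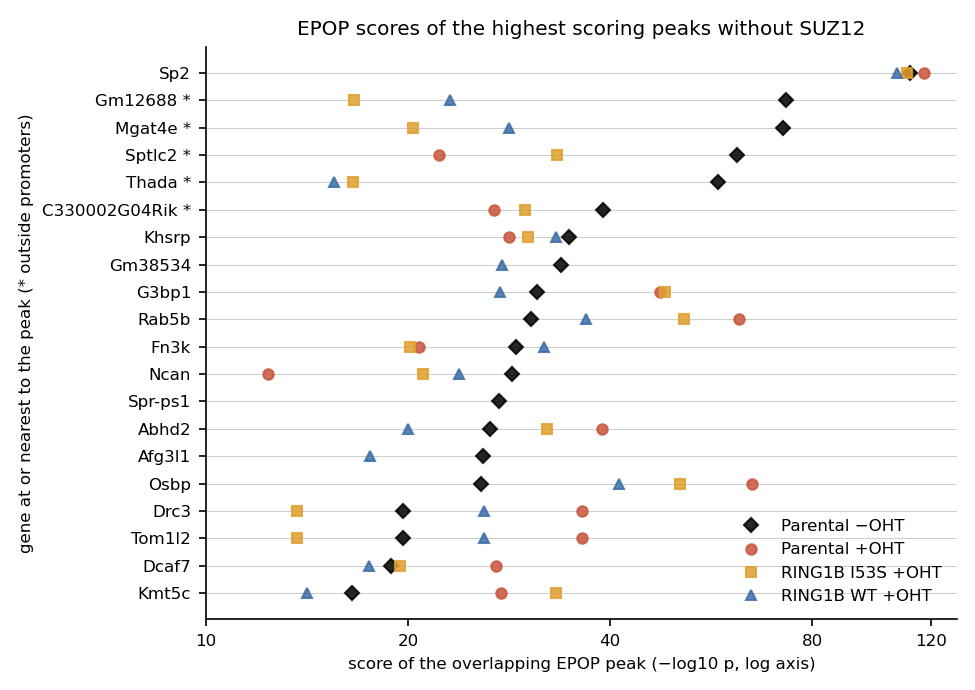
Score (−log10 p) of the overlapping EPOP peak in Parental -OHT and the 3 +OHT lists, on a log axis, for the SUZ12-negative peaks chosen by highest score; a missing symbol means no peak and an asterisk a peak outside promoters. Sp2 sits above 100 in all 4 lists, while Spr-ps1 is in the Parental -OHT list alone.

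Outside promoters, 8 members were in all 3 +OHT lists. The 5 named here were chosen by their Parental -OHT score alone, unlike the promoter peaks just described, which were chosen for being in all 3. The one nearest to Gm12688, a lincRNA whose start lay 18779 bp from the peak middle, scored 73.0 before OHT, had no peak in Parental +OHT, and scored 16.6 in RING1B I53S and 23.1 in RING1B WT. The one nearest to Mgat4e scored 72.4, then none, 20.3 and 28.3. Peaks in introns of Sptlc2, a subunit of serine palmitoyltransferase, and Thada scored 61.9 and 57.9 before OHT, and each was missing from 1 of the 3 later lists. Of the promoter peaks chosen by Parental -OHT score, those at Gm38534, Afg3l1 and Spr-ps1 were also missing from +OHT lists.

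CCAAT boxes recurred at the 37 peaks present in all lists. At least 1 match was held by 25 of the 37 windows of 500 bp (67.6%, interval 51.5 to 80.4), 47.1% of all members, 35.9% of SUZ12-positive peaks and 48.6% of gene starts. At least 3 were held by 13 of 37 (35.1%, 21.8 to 51.2), against 6.15% of all members, 4.53% of the 596 present in no +OHT list and 6.42% of gene starts. The SUZ12-positive peaks present in all 3 +OHT lists had at least 3 in 1.56% of 1791 windows. Off chromosome 11, 6 of 15 such members had at least 3. Counting matches per window was chosen after the sequences above were seen, and no test was made.

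Of the other motifs, GGGCGG was in 25 of the 37 (67.6%), 36.0% of all members, 54.6% of SUZ12-positive peaks and 52.6% of gene starts. CACGTG, an E-box, was in 12.2% of members, 8.94% of SUZ12-positive peaks and 10.4% of gene starts. CCGGAAG, an ETS site, was in 7.91% of members and 14.5% of gene starts. The NRF1 motif was in 2.25% and 7.17%, and TGACGTCA (CRE) in 0.977% and 2.74%. AAGATGGC (YY1) was in 2.05% and 4.81%, ATGCAAAT (octamer) in 3.81% and 2.0%, and AGGCCT (ZFX) in 18% and 16.3%. TTCCCGCC (E2F) was in 3.12% and 4.64%, and TTCCNGGAA (STAT) in 1.95% and 1.89%. The remaining 5 motifs, TTTCGCGC (E2F), TCTCGCGA (KAISO), TCAAGGTCA (ESRRB) and those of ZNF143 and CTCF, were each in under 1% of members.

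Genes at SUZ12-negative EPOP peaks were expressed above the typical gene. A member lay in the promoter of 578 gene names of the count table, of which 430 were protein-coding, and 133 had a SUZ12 peak elsewhere in the same promoter. Over the 430, the median level in the Parental -OHT libraries was 1.81 and 1.46 log2(RPKM + 0.1), against -0.84 and -1.12 for 4722 genes at SUZ12-positive peaks alone and 0.10 and -0.11 for all 21924 protein-coding genes. The ranges over the 12 libraries of the 3 lines were 1.27 to 2.17, -1.20 to 0.85 and -0.22 to 1.03, and genes at members stood above all protein-coding genes, and those above genes at SUZ12-positive peaks, in each of the 16 libraries. Off chromosome 11 the range for protein-coding genes at members was 1.04 to 1.91 over the 12. Levels in bulk RNA cannot tell fewer expressing cells from less RNA per cell, and genes here are not replicates, so no test is given.

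Within the members, the level went with H3K27me3. The 277 protein-coding genes at members without H3K27me3 had medians of 1.98 to 2.57 over the 12 libraries, and the 153 at members with it -0.14 to 1.38. The 33 at peaks present in all 3 +OHT lists stood highest, at 3.61 to 4.23, and 87.9% to 93.9% of them reached 1 RPKM. Sp2 was at 21.7 and 15.5 RPKM in Parental -OHT, Osbp at 4.51 and 4.97, Rab5b at 8.65 and 8.68 and G3bp1 at 156 and 141. Fn3k, fructosamine 3-kinase, was an exception at 0.0714 and 0.101 RPKM, and its peak, present in all 3 lists, overlapped JARID2 and H3K27me3.

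**Figure D4:**
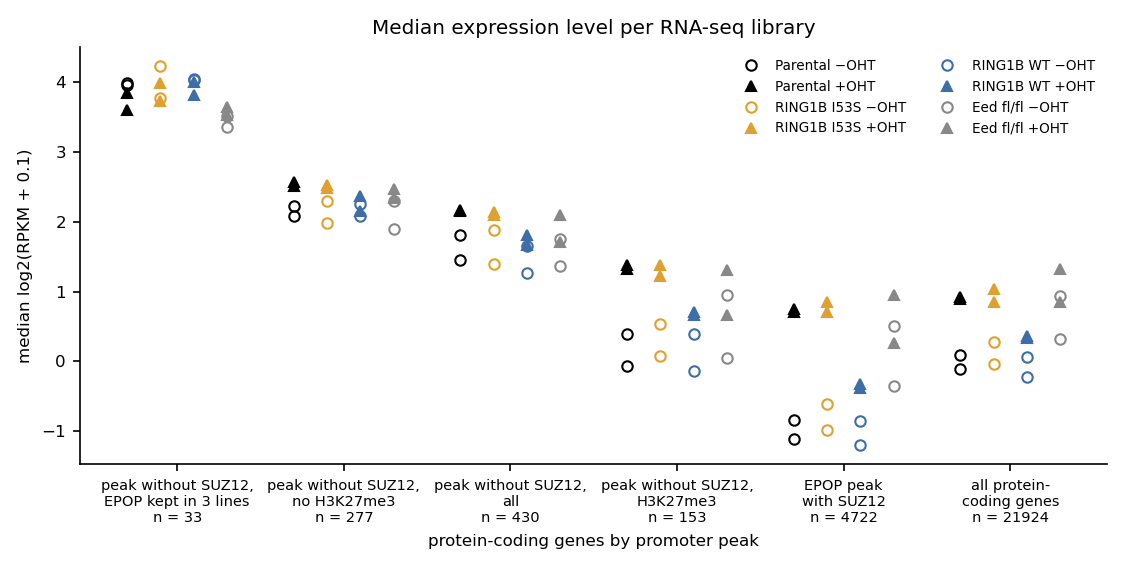
Median log2(RPKM + 0.1) of protein-coding genes in each of the 16 RNA-seq libraries, by the EPOP peak in the promoter; each symbol is 1 library, open -OHT and filled +OHT. Genes at SUZ12-negative peaks lie between 1.27 and 2.17 in the 12 libraries of the 3 lines, above genes at SUZ12-positive peaks in every line.

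With OHT, genes at SUZ12-negative EPOP peaks were called about as often as all genes. A gene was called at a log2 fold change of at least 1.5 in size and a false discovery rate (FDR) under 0.05 in edgeR's quasi-likelihood test. In Parental cells, 55 of the 423 genes tested were higher with OHT (13%) and 7 lower (1.65%), beside 15.1% and 1.83% of all 18154 genes. Genes at SUZ12-positive peaks alone were higher in 43.8% of 4319. The median log2 fold change was 0.22 for the 423, 1.37 for the 4319 and 0.03 for all genes. Of the 310 genes with no SUZ12 peak in the promoter, 25 (8.06%) were higher and 4 (1.29%) lower, with a median of 0.08.

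Marker lists of other cell types moved with OHT in the same libraries. In Parental cells the 4 endoderm markers summed to 0.362 to 0.538 RPKM without OHT and 4.52 to 5.09 with it, and the 4 trophoblast markers to 58.6 to 72.5 and 207 to 210. Krt8 and Krt18 carried the trophoblast sum, while Tfap2c was at 28.8 and 22.4 RPKM in Parental -OHT and 24.8 and 15.7 in Parental +OHT. The 5 fibroblast markers summed to 26.9 to 27.6 RPKM in Parental -OHT and 21.1 to 23.2 in Parental +OHT. Vim fell there from 22.9 and 24.3 RPKM to 9.58 and 8.78, while Col1a1, Col1a2, Thy1 and Twist1 all rose. Thy1, the highest of these, went from 3.38 and 2.83 RPKM to 8.17 and 7.69. In RING1B I53S the trophoblast sums were 67.8 to 90.5 and 161 to 179, and in RING1B WT 55.2 to 61.8 and 96.2 to 98.6. The 6 stem cell markers summed to 893 to 1083 RPKM in Parental -OHT and 428 to 458 in Parental +OHT. They did not fall alike. Zfp42 went from 346 and 390 RPKM to 117 and 90.6, and Klf4 from 29.3 and 30.1 to 24.1 and 29.7. The part of these shifts in the calls was not tested.

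The calls again went with H3K27me3 at the peak. Of the 140 genes at members with it, 36 (25.7%) were higher and 0 lower in Parental, and of the 283 at members without it 19 (6.71%) were higher and 7 (2.47%) lower, beside the 15.1% and 1.83% of all genes. DESeq2 also called 0 of the 140 lower, beside 1.64% of all genes, and 5 were lower at an unadjusted p under 0.05 in edgeR, beside 17.3%. A SUZ12 peak elsewhere in the promoter was held by 80 of the 207 gene names at members with H3K27me3 and by 53 of the 371 without. Over promoters free of SUZ12, a split chosen after seeing the data, 14 of 78 genes (17.9%) at members with H3K27me3 were higher and 11 of 232 (4.74%) at members without. Of the 33 genes at peaks present in all 3 +OHT lists, 0 were called in either direction in Parental, RING1B I53S or RING1B WT, by edgeR or DESeq2. At an unadjusted p under 0.05, 2 of the 33 were higher and 8 lower in Parental, beside 26.2% and 17.3% of all genes. In RING1B I53S 3 were higher and 6 lower, beside 23.4% and 14.3%, and in RING1B WT 1 and 1, beside 11.3% and 4.57%. Sp2 itself was at 73.9 and 52.9 CPM without OHT and 36.7 and 39.6 with it (log2 fold change -0.93 ± 0.21 SE, adjusted p = 0.0018, edgeR), a change short of the fold limit.

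In RING1B I53S cells, 46 of the 423 genes (10.9%) were higher and 2 (0.473%) lower, beside 12.8% and 1.04% of all genes. The median log2 fold change of genes at members was 0.20 in RING1B I53S. It ranged from 0.11 to 0.34 with 1 library of the line left out, and the counts called moved with the library left out. In RING1B WT cells, 2 (0.473%) were higher and 0 lower, beside 1.34% and 0.0386%, and at an unadjusted p under 0.05 58 were higher and 12 lower, beside 11.3% and 4.57%. The median log2 fold change of genes at members was 0.10 in RING1B WT. With 1 library of the line left out it ranged from 0.024 to 0.26, and the counts called moved there too. DESeq2 called 50 of the 423 higher and 7 lower in Parental, beside 14% and 1.64% of all genes, 40 and 2 in RING1B I53S, beside 11.6% and 0.892%, and 2 and 0 in RING1B WT, beside 1.58% and 0.0441%. By the FDR alone, with no fold limit, 105 of the 423 genes were higher and 43 lower in Parental, beside 21.9% and 12.4% of all genes. In RING1B I53S 81 were higher and 27 lower, beside 18.4% and 8.37%, and in RING1B WT 8 were higher and 0 lower, beside 1.91% and 0.308%. The OHT effect itself differed between RING1B WT and Parental at 7 of the 423 genes (FDR under 0.05), beside 2.07% of all genes. Between RING1B I53S and Parental it differed at 0 of 423, beside 0% of all genes, and 9 of the 423 passed an unadjusted p under 0.05, beside 2.69%.

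The genes that fell included Manba, lysosomal beta-mannosidase, with a member (chr3:135484931-135485907, EPOP 13.4) at its start. It was at 494 and 440 CPM in Parental -OHT and at 54.1 and 52.7 with OHT. In RING1B I53S it went from 404 and 426 to 47.7 and 66.6, and in RING1B WT from 425 and 431 to 348 and 274. The libraries of the first 2 lines did not overlap between -OHT and +OHT by a wide margin (log2 fold changes -3.33 ± 0.21 and -3.01 ± 0.21, adjusted p = 2.9e-09 and 1.3e-08, edgeR), and RING1B WT was not called (-0.55 ± 0.19, adjusted p = 0.14).

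Myo1f, a class I myosin, fell likewise from 27.8 and 28.9 CPM to 8.44 and 6.48 in Parental (-2.12 ± 0.25, adjusted p = 3.5e-06, edgeR) and from 25.3 and 34.5 to 9.88 and 9.08 in RING1B I53S. Unlike that of Manba, its member (chr17:33599914-33600385) lay inside the gene, which starts at 33555707, and counted through an annotated start within it. Zic5 and Zic2, neighbouring zinc-finger genes with SUZ12 elsewhere in their promoters, fell in Parental from 30.4 and 29.6 to 6.95 and 5.14 CPM and from 22.6 and 27.5 to 4.82 and 8.64. Both were already low in RING1B I53S -OHT, at 8.09 and 9.30 CPM for Zic5 and 6.99 and 6.05 for Zic2. The non-coding gene 2610035F20Rik, which runs away from Zic2 on the other strand and holds the same member as Zic2, fell in Parental too, from 3.53 and 4.91 to 1.21 and 0.514 CPM.

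Among the genes that rose in Parental cells, Clu, a secreted chaperone, went from 26.2 and 21 to 191 and 162 CPM (2.7 ± 0.22, adjusted p = 3.9e-08, edgeR). Pdpn, a membrane mucin, went from 52.4 and 36.5 to 316 and 224 CPM. Neither has SUZ12 in its promoter in Parental -OHT, and neither member was in a +OHT EPOP list. In RING1B I53S Clu reached 99.6 and 129 CPM and Pdpn 171 and 174. In RING1B WT they reached 45.3 and 54.4, and 52.8 and 62.5, which is below both other lines.

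Ptpn14, a tyrosine phosphatase, Sphk1, a sphingosine kinase, and Adamts2, a procollagen protease, rose as well and do have a SUZ12 peak at an annotated start. The Ptpn14 member (chr1:189786519-189787074) lay inside the gene, which starts at 189728268. Sphk1 went from 1.02 and 1.56 to 22.8 and 22.7 CPM in Parental, and Adamts2 from 0.157 and 0.669 to 9.55 and 11.4. Adamts2 and Itga2b, the platelet integrin subunit, were the 2 genes called in RING1B WT. Adamts2 went there from 0.409 and 0.698 to 4.02 and 3.56 CPM and Itga2b from 3.68 and 0.897 to 8.24 and 9.34. The Itga2b member (chr11:102455206-102456005) lay inside the gene, which starts at 102470122 on the minus strand. Itga2b lost its call without either of the +OHT libraries (log2 fold changes 1.95 and 1.75) or without RING1B WT -OHT replicate 2 (1.2), and Adamts2 without +OHT replicate 2 (2.72) or either -OHT library (2.30 and 3.12).

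**Figure D5:**
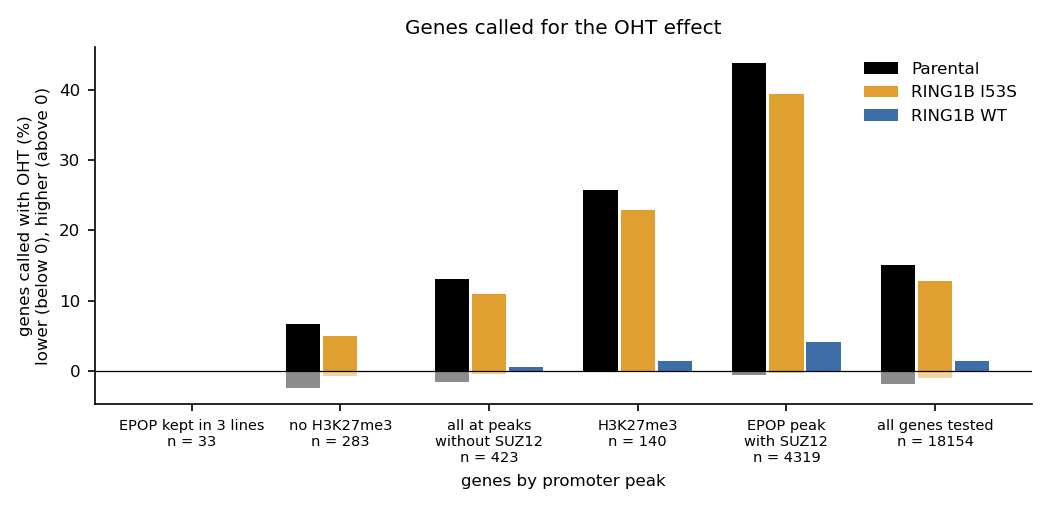
Percent of genes called higher (above 0) or lower (below 0, pale) with OHT in Parental, RING1B I53S and RING1B WT cells, by the EPOP peak in the promoter, with the number tested under each class. Genes at SUZ12-negative peaks were called higher in 13% in Parental, near the 15.1% of all genes, and 43.8% were at SUZ12-positive peaks.

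In Eed fl/fl cells OHT is used to delete Eed, the gene of a core PRC2 subunit, and Eed went from 219 and 172 CPM to 64.3 and 51.2. There 0 of 464 genes at members were called in either direction by edgeR, beside 0.00795% of all 25170 genes higher and 0% lower. DESeq2 called 1 of them higher and 0 lower, beside 0.0993% and 0.0516% of all genes, and 22 were higher and 8 lower at an unadjusted p under 0.05, beside 3.11% and 2.34%. The median log2 fold change of genes at members was 0.13 in Eed fl/fl. With 1 library left out it ranged from 0.021 to 0.21, and the counts called moved with the library left out. Ptpn14 stood at 39.0 and 50.8 CPM before OHT and 152 and 162 after it, which did not pass (1.62 ± 0.26, adjusted p = 0.077, edgeR).

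A member lay in the promoter of 1.04% of all gene names, and of 430 of the 21924 protein-coding ones, and beside these shares a count of 0 or 1 in the short lists that follow does not stand apart. Of 12 PRC2 genes, Jarid2 alone had one in its promoter, a peak scoring 10.4 with H2AK119ub1 and RYBP but no MTF2, and none of 9 Elongin-related, 23 PRC1, 20 pluripotency, 14 germline and 15 developmental genes had one. All 15 developmental regulators had a SUZ12-positive EPOP peak instead. Jarid2 was at 950 and 741 CPM in Parental -OHT and 694 and 602 with OHT (-0.58 ± 0.17, adjusted p = 0.014, edgeR), under the fold limit. Of 83 mitochondrial ribosomal protein genes, 5 had a member (Mrps25, Mrps24, Mrpl55, Mrps23 and Mrpl12), and 4 of these 5 lie on chromosome 11. Names beginning as cytosolic ribosomal proteins gave 3 of 388, a kinase (Rps6kb1) and the pseudogenes Rpl36-ps1 and Rps2-ps10. Of 70 histone genes, Hist3h2ba and Hist3h2bb-ps shared 1 member. Of the listed genes with a member, 0 were called for OHT in any line by edgeR. Beside this, 15.1%, 12.8% and 1.34% of all genes were higher in Parental, RING1B I53S and RING1B WT, and 1.83%, 1.04% and 0.0386% lower. Rpl36-ps1, Rps2-ps10 and Hist3h2bb-ps were not tested in these 3 lines, nor Rps2-ps10, Hist3h2ba and Hist3h2bb-ps in Eed fl/fl. With so few genes tested, a count of 0 does not stand apart from these shares.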

How the data were processed

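The authors mapped ChIP-seq reads to the mouse genome (mm10) with Bowtie 1.2.2 and called peaks with MACS2 2.1.1 against E14 input. The deposited peak lists (74) give positions and a −log10 p per peak, at least 10, and no reads, so ChIP depth is unknown. The authors mapped RNA-seq (SMART-seq2, not stranded) with STAR 2.7 and deposited raw counts per gene from featureCounts, whose version is not given in the sources used here. They tested with DESeq2 1.20. The count tables held 16 libraries of 6957248 to 12743460 counts and 55341 gene names.

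From these files, peaks were intersected at a minimum overlap of 1 bp. Promoters reached 2.5 kb to either side of an annotated transcript start. Shares carry 95% Wilson intervals and differences Newcombe intervals, which cover counting error only, and the members' own EPOP and SUZ12 values were not tested. Counts were tested with edgeR 4.0.16 (quasi-likelihood, TMM, filterByExpr, R 4.3.3) in 1 fit of the 12 libraries of the 3 lines and a separate fit of the 4 Eed fl/fl libraries. Calls needed a log2 fold change of at least 1.5 in size and a Benjamini-Hochberg FDR under 0.05 over all genes. The p-values rest on the spread between 2 libraries per group, taken over all groups of a fit and shared across genes. This spread may be technical. Levels are RPKM computed from the counts and annotated gene lengths. Sequences came from RefSeq GRCm38.p6, in windows of 500 bp. Python 3.11.15, pandas 2.3.3, scipy 1.17.1, limma 3.58.1 and, as an alternative test, DESeq2 1.42.0 were used, and the fits were tested on simulated data.

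Named genes were the 10 with the highest scoring member, the 10 with the highest Parental +OHT score among members in all 3 +OHT lists, the called genes of lowest adjusted p, the genes nearest to the 5 highest scoring members outside promoters, and listed genes with a member. The members and lists were chosen with earlier results of these data known. Alternatives without chromosome 11, with SUZ12-free promoters alone and with CCAAT counts were chosen after seeing the data. Replicates of a group differed by more than sampling noise. Same-numbered libraries of a line deviated together with correlations of 0.055 to 0.447, with 2 pairs a line, and the labels give the numbers no further meaning. One RYBP list could not be assigned to a group.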

Additional observations from a re-analysis of the deposited data

Results flagged for a closer look

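The OHT effect at 6 of the named genes with a SUZ12-negative EPOP peak in the promoter differed between RING1B WT and Parental cells, by a test of the difference itself in edgeR over all genes. Each value is the log2 effect of OHT in RING1B WT minus that in Parental, with its SE. For the 3 genes that fell in Parental, the difference was 2.77 ± 0.28 at Manba (adjusted p = 2.00e-05), 1.85 ± 0.34 at Myo1f (adjusted p = 0.00592) and 1.70 ± 0.38 at Zic5 (adjusted p = 0.0248). For the 3 that rose, it was -1.62 ± 0.30 at Clu (adjusted p = 0.00552), -1.39 ± 0.31 at Pdpn (adjusted p = 0.0225) and -2.64 ± 0.64 at Sphk1 (adjusted p = 0.0355). These genes were named because they were called in Parental, which favours a smaller effect in RING1B WT, so the direction of the differences is a description only. Such a difference was found at 7 of the 423 genes at members, beside 2.07% of all genes.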

How the results depend on the processing

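Of 429 recomputations of 50 results, 339 kept their direction and stayed within 1 SD, their interval or 1.5 times, 83 moved, 7 lost a call and 0 reversed. A score limit of 20 for EPOP left 58 members, and on these the shares were 43.1% at promoters, 37.9%, 39.7% and 65.5% with EPOP in Parental, RING1B I53S and RING1B WT +OHT, 62.1% with MTF2, 46.6% with JARID2 and 36.2% with H3K27me3. A limit of 20 for the other lists gave 2.25%, 2.15% and 5.27% for EPOP in the same order, 84.1% for MTF2, 38.8% for JARID2 and 17.6% for H3K27me3. Asking for 50% of the member to be covered gave 67.5% for JARID2 and 33.1% for H3K27me3. Off chromosome 11, EPOP was 6.39% in Parental and 7.95% in RING1B I53S, and H3K27me3 37.2%. Promoters of 1 kb held 39.7% of members.

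Genes called higher numbered 32 in Parental, 21 in RING1B I53S, 0 in RING1B WT and 1 in Eed fl/fl with at least 10 counts in every library. With the FDR alone, 105, 81 and 8 were higher in the 3 lines and 43 and 27 lower in the first 2. With SUZ12-free promoters, 25, 19 and 0 were higher and 4 lower in Parental, where members with and without H3K27me3 gave 14 and 11 higher in place of 36 and 19, and off chromosome 11, 36, 30 and 0 were higher. Promoters of 1 kb gave 4 lower in Parental, 1 lower in RING1B I53S and 1 higher in RING1B WT, where the line alone gave 1 and no count filter 4. DESeq2 gave 1 higher in Eed fl/fl. The cause of these shifts was not tested, beyond the fewer genes or peaks that a stricter limit leaves. For the other count filters and the line alone, the share of all genes called is not given. Those counts are therefore not read as a result about the members.

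Leaving out 1 library gave 43 to 57 higher and 6 to 8 lower in Parental, 28 to 55 and 2 to 5 in RING1B I53S, 0 to 10 and 0 to 1 in RING1B WT, and 0 to 5 and 0 to 1 in Eed fl/fl, the lone library being assumed to vary like the others. The 28 came without RING1B I53S -OHT replicate 2 and the 5 lower without RING1B I53S +OHT replicate 1. The 10 came without RING1B WT -OHT replicate 1, the 0 without RING1B WT -OHT or +OHT replicate 2, and 1 higher and 1 lower without +OHT replicate 1. In Eed fl/fl, 5 came without -OHT replicate 2, 1 higher without +OHT replicate 2 and 1 lower without +OHT replicate 1. With the replicate number as a block, 58, 45, 2 and 2 genes were higher in Parental, RING1B I53S, RING1B WT and Eed fl/fl, but the numbers were not shown to pair the libraries. The share of all genes called with the block is not given, so these counts are not read as a result about the members.

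The median level of all 578 genes at members in Parental -OHT was 0.71 and 0.47 log2(RPKM + 0.1). It was 1.34 and 1.19 with a pseudocount of 1, 1.09 and 0.70 with promoters of 1 kb, 1.90 and 1.61 over genes kept by the count filter, and 0.55 and 0.18 off chromosome 11. With 1 ChIP library per condition, no share of peaks has a replicate check, and peak lists do not show how far below the score limit a missing peak lay.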

Other observations

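A RYBP peak list that the labels put in no group held 61 peaks and overlapped 3 of the 1024 SUZ12-negative EPOP peaks (0.293%) and 18 of the 7024 SUZ12-positive ones (0.256%).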
